A study of Mus musculus with 24 samples.

Results

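The miR-29 family was examined in small RNA sequencing of exosome-enriched fractions (EEFs) from mouse hippocampus. Its members were the 5 rows of the count tables named mmu-mir-29a-3p, mmu-mir-29b-3p, mmu-mir-29c-3p, mmu-mir-29a-5p and mmu-mir-29c-5p, written miR-29a-3p and so on from here, out of 1073 mature miRNA names with reads in the 24 libraries. The rule used names only and no measured value. The 2 other rows of the family, the 5p strands of the 2 miR-29b hairpins, held 1 and 7 reads after ultracentrifugation and 19 each after kit precipitation, and were not members.

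The mice were male C57BL/6 in the labels, given as C57BL/6OlaHsd in the study's methods, of 6 to 9 weeks. Each received 0.2 µl into the right basolateral amygdala, either PBS (control) or 0.3 µg kainic acid (KA), which triggers status epilepticus that spreads to the hippocampus, and midazolam at 8 mg/kg after 40 min, per the study's protocol. EEFs were prepared 24 h or 2 weeks later, either by ultracentrifugation (UC, 5 hippocampi pooled per sample) or with a precipitation kit (ExoQuick in place of the fastest spin, 4 hippocampi pooled), giving 8 groups of 3 libraries. The tissue was dissociated in Hibernate A for UC and in PBS for the kit. An EEF is a preparation enriched in exosomes rather than a pure one, and no cell type was selected. In every group the EEFs were treated with RNase A before RNA extraction. No pool is given as prepared by both methods, so the method and the set of libraries cannot be told apart.

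The family has 3 mature strands from the 3′ arm of the hairpin that share a seed, the bases through which a miRNA recognises its targets, and these are the strands that mostly enter Argonaute. miR-29 is abundant in the adult brain, in neurons and in astrocytes, and is known for repressing collagens and other matrix genes, the de novo DNA methyltransferases and several pro-apoptotic BH3-only genes. The 5p strands are the opposite arms of the same hairpins and usually the less stable product.

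The mature sequences are shown because the shared seed and the few differing bases decide which reads can be told apart. The capitals mark the seed, bases 2 to 8, in the RefSeq sequences.
miR-29a-3p: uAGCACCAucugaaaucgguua
miR-29b-3p: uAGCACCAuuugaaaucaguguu
miR-29c-3p: uAGCACCAuuugaaaucgguua
miR-29a-5p: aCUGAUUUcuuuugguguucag
miR-29c-5p: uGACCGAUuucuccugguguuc

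The seed AGCACCA occurred in 3 of 1679 mature mouse miRNA names of the RefSeq table, and these were the 3 members of the 3′ arm. The 2 members from the 5′ arm had different seeds from these and from each other. Counting from 1 at the 5′ end, miR-29a-3p and miR-29c-3p differed by a single substitution, C10U. miR-29c-3p and miR-29b-3p were the same over their first 17 bases and then differed by G18A, U21G and A22U, with 1 more base at the end of miR-29b-3p. The capitals below mark the stretch after the shared 17 bases.
miR-29b-3p: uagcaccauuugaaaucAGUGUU
miR-29c-3p: uagcaccauuugaaaucGGUUA

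The last 6 letters of miR-29b-3p are also known as an element that directs this miRNA to the nucleus, which its relatives lack. A read can be told to be miR-29b-3p rather than miR-29c-3p only if it carries bases beyond the shared 17. Most reads named miR-29b-3p did not match that far, as described below.

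The members are made from 4 hairpins in 2 pairs (GRCm38). Mir29a lies at chr6:31062660-31062747 and Mir29b-1 at chr6:31063023-31063093, both on the minus strand and 275 bases apart. Mir29b-2 at chr1:195037040-195037120 and Mir29c at chr1:195037547-195037634 lie on the plus strand, 426 bases apart. In GENCODE the second pair lies within an exon of the non-coding transcript A330023F24Rik and opposite an exon of Cd46 on the other strand, while Mir29a overlaps no other gene and Mir29b-1 overlaps the lincRNA Gm27019 by its end only. The hairpin of Mir29a shows how both arms are placed, with the 5p and then the 3p mature sequence in capitals.
Mir29a: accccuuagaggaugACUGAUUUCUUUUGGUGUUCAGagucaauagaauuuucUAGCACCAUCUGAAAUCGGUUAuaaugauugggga

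The mature miR-29b-3p is identical in both of its hairpins, so its reads cannot be assigned to either locus.

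Library totals ranged from 85436 to 169639 counts in UC EEFs and from 154884 to 676726 in kit EEFs. A single read corresponded to between 5.89 and 11.7 reads scaled to the library total (counts per 1e6, CPM) in UC EEFs and between 1.48 and 6.46 CPM in kit EEFs, and a limit of 3 reads to between 17.7 and 35.1 CPM and between 4.43 and 19.4 CPM. Neuronal marker miRNAs (5 fixed, among them miR-124-3p) summed to between 29865 and 43026 CPM in UC EEFs and between 47256 and 78956 in kit EEFs, so brain miRNAs were present with both methods. Intervals and limits from read numbers cover counting error only, since reads without molecular identifiers are not independent molecules.

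The 3 members of the 3′ arm were detected in every library. miR-29a-3p was the most abundant with 2229 reads in the UC libraries and 13486 in the kit libraries, ranking 56 by mean CPM among 859 miRNAs with reads in UC EEFs and 37 among 961 in kit EEFs. miR-29b-3p had 434 and 3433 reads and miR-29c-3p had 231 and 2789. The 5p members were sparse. miR-29a-5p had 27 UC reads, found in 11 of 12 libraries, and 71 kit reads, found in all 12. miR-29c-5p had 7 UC reads, found in 6 of 12 libraries, and 34 kit reads, found in 11 of 12.

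The first question was whether the way EEFs were prepared altered the level of these miRNAs relative to all others in the library. All 3 members of the 3′ arm were higher in kit EEFs than in UC EEFs, and neither 5p member passed the test.

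For miR-29a-3p the UC libraries lay between 917 and 1791 CPM (median 1477) and the kit libraries between 2450 and 4572 CPM (median 3521). Every kit library exceeded every UC library. Mean levels were 1443 CPM ± 256 in UC EEFs and 3497 CPM ± 814 in kit EEFs (SD, n = 12 each), and the log2 difference, kit minus UC, was 1.23 (standard error 0.14, 95% interval 0.96 to 1.51, adjusted p = 8.63e-10, edgeR's quasi-likelihood test).

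For miR-29b-3p the UC libraries lay between 145 and 515 CPM (median 272) and the kit libraries between 444 and 1493 CPM (median 843). Both ranges overlapped slightly. Mean levels were 285 CPM ± 112 and 900.2 CPM ± 332 (SD, n = 12 each), a log2 difference of 1.63 (standard error 0.21, interval 1.21 to 2.05, adjusted p = 1.83e-08, edgeR). Most of its reads end before the bases that separate it from miR-29c-3p and carry long tails, and without tailed reads the log2 difference was 0.94, under 2-fold.

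For miR-29c-3p the UC libraries lay between 93.2 and 211 CPM (median 155) and the kit libraries between 394 and 1433 CPM (median 569). The highest UC library was below the lowest kit library. Mean levels were 151 CPM ± 36.8 and 635 CPM ± 287 (SD, n = 12 each), and the log2 difference of 2.04 (standard error 0.20, interval 1.64 to 2.44, adjusted p = 5.25e-11, edgeR) was 14th from the top among 397 miRNAs tested.

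Differences between methods were common. Of the 397 miRNAs, 66.2% passed the adjusted threshold of 0.05 (263), 33.2% being higher and 33% lower in kit EEFs, and 22.2% were higher in kit EEFs by over 2-fold, as the 3 members of the 3′ arm were when all reads were counted. The median log2 difference of all 397 was -0.02. Every kit library was above every UC library for 5.79% of them (23), among which were miR-29a-3p and miR-29c-3p. Against this background the members of the 3′ arm stood 65th, 35th and 14th in order of their log2 difference (miR-29a-3p, miR-29b-3p and miR-29c-3p).

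**Figure D1:**
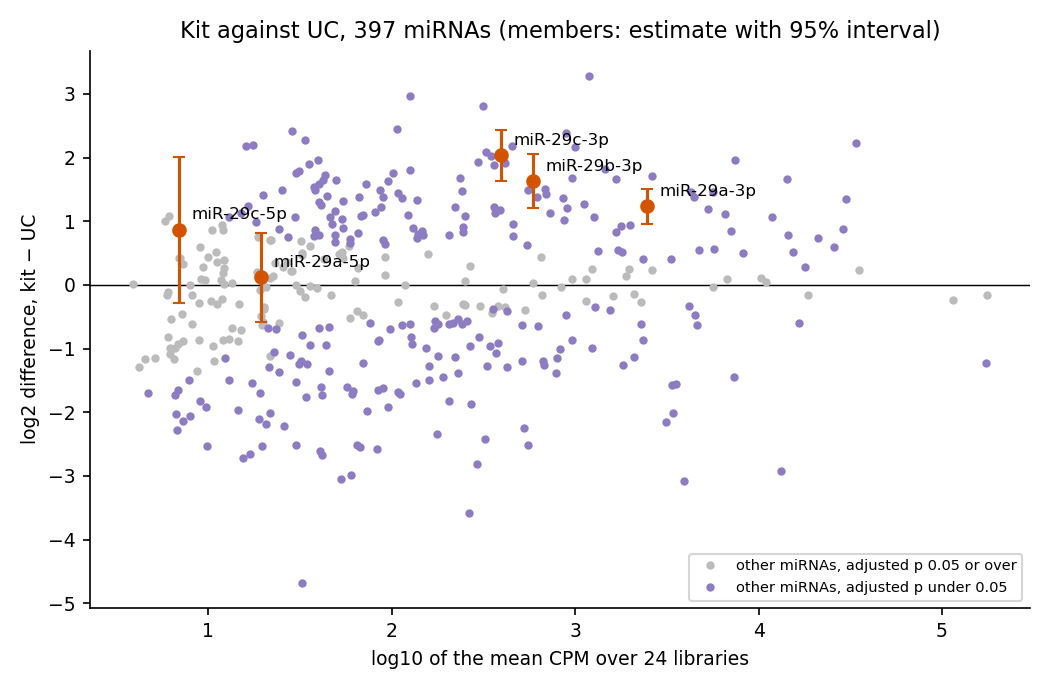
Log2 difference between kit and UC (y axis) against the log10 of the mean CPM over 24 libraries (x axis) for the 397 miRNAs tested, with the 5 members as orange points and 95% intervals. The 3 members of the 3′ arm lie between 1.23 and 2.04 with intervals above 0, and the intervals of both 5p members include 0.

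The 5p strands were measured with less precision. miR-29a-5p averaged 18.8 CPM ± 13.5 in UC EEFs and 19.9 CPM ± 8.09 in kit EEFs (SD, n = 12 each), with a log2 difference of 0.12 (interval -0.59 to 0.82, adjusted p = 0.929, edgeR). miR-29c-5p averaged 4.64 CPM ± 5.11 and 9.27 CPM ± 5.94, with a log2 difference of 0.86 (interval -0.29 to 2.02, adjusted p = 0.17, edgeR). These levels lay at or below a few reads per library. For miR-29a the interval of the 5p strand lay below that of its partner 3p strand (0.96 to 1.51). For miR-29c the interval of the 5p strand overlapped that of its partner 3p strand (1.64 to 2.44). These fits did not test the arms against each other.

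Cell type markers also differed between the methods. The 2 oligodendrocyte markers summed to between 5942 and 10689 CPM in UC EEFs and between 1629 and 2154 in kit EEFs, and 1 of 2 was lower in kit EEFs. The 2 endothelial markers were both higher in kit EEFs (218 to 609 CPM in UC EEFs, 2101 to 3242 in kit EEFs), as were 4 of 5 neuronal markers, while 1 of 3 tested myeloid markers was lower (1757 to 5397 CPM for the 5 summed in UC EEFs, 677 to 7625 in kit EEFs). The 3 red blood cell markers (miR-451a, miR-144-3p and miR-486a-5p) summed to at most 11.3 CPM in UC EEFs and 184 CPM in kit EEFs. The defining miR-451a had 2 and 141 reads. The sum leaves out miR-486b-5p, which was not on the list but was among the miRNAs tested between methods (log2 difference 0.43). miR-155-5p, a myeloid marker, held 4 and 5 reads. The part of these cell types in the difference of the miR-29 members was not tested, and fewer cells of a type and less RNA per cell cannot be told apart in such samples.

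**Figure D2:**
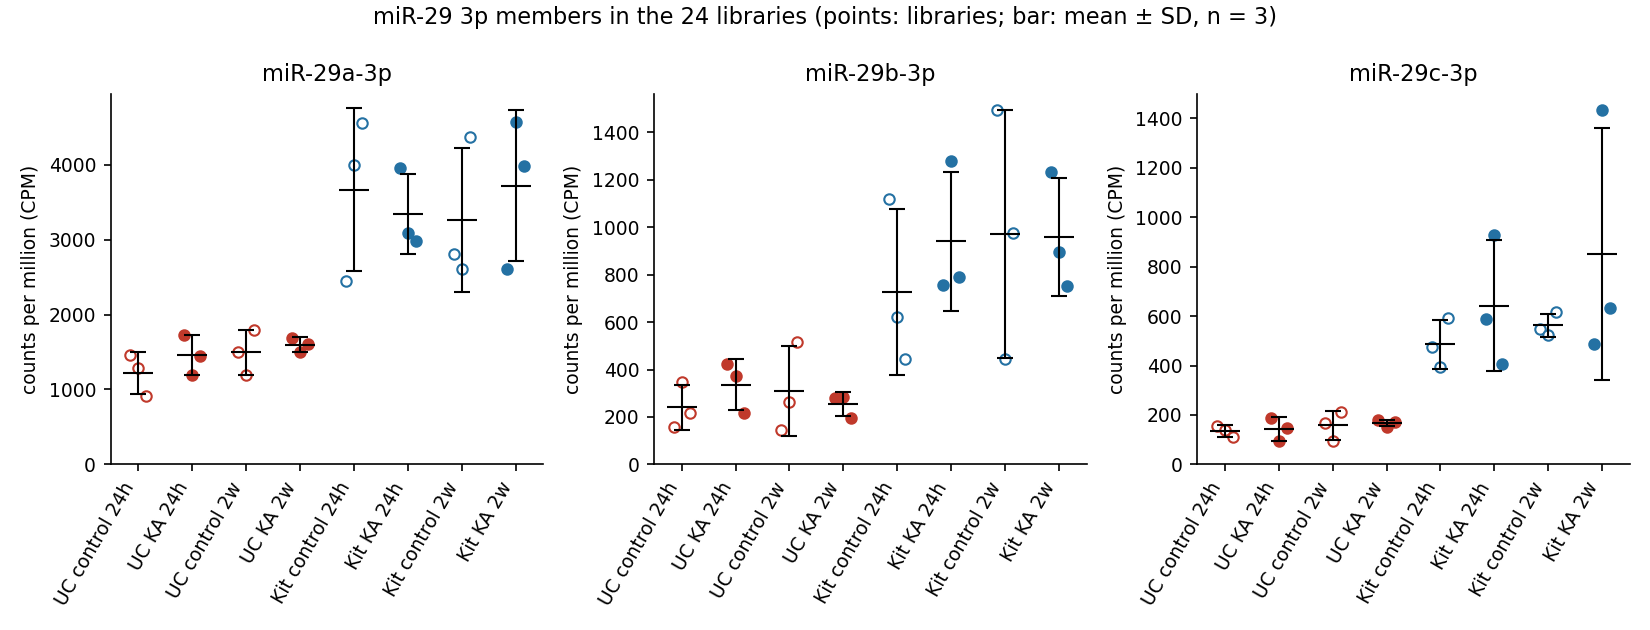
CPM (y axis, from 0) of the 3 members of the 3′ arm in each of the 24 libraries by group (x axis), UC in red and kit in blue, controls as open and KA as filled circles, with the mean ± SD of each 3 libraries. Kit libraries lie above UC libraries for miR-29a-3p and miR-29c-3p, and control and KA libraries overlap in every group pair shown.

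Summed over the 3 strands, the family took between 0.124 and 0.252% of all miRNA counts of a UC library (mean 0.188% ± 0.034, SD, n = 12) and between 0.358 and 0.690% of a kit library (0.503% ± 0.092, n = 12).

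Within the family, the share of miR-29c-3p was higher in kit EEFs, while the lower share of miR-29a-3p depended on the reads and the fit used. miR-29a-3p made up 76.9% ± 4.16 of the 3p reads in UC EEFs and 69.2% ± 8.32 in kit EEFs (SD, n = 12 each), lower in kit EEFs by 7.64 points (p = 0.0144, adjusted over the 9 measures of the contrast 0.0216, two-sided exact permutation test within treatment and time). This call was lost with the replicate number as a block (adjusted p = 0.0513, same exact test) and without the long-tailed reads described below (-1.98 points, adjusted p = 0.0901, same exact test). miR-29c-3p rose from 7.99% ± 1.10 to 12.4% ± 3.59 (p = 5e-05, adjusted 0.000225, same exact test). For miR-29b-3p the shares were 15.1% ± 4.79 and 18.4% ± 7.54, and the test was not passed (p = 0.249, adjusted 0.249, same exact test). Of the reads named miR-29b-3p, 75.1% hold no base that separates it from miR-29c-3p, so the split between these names is uncertain. Without long-tailed reads the miR-29b-3p difference turned to -0.889 points, and its level lay below that of miR-29c-3p with both methods.

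**Figure D3:**
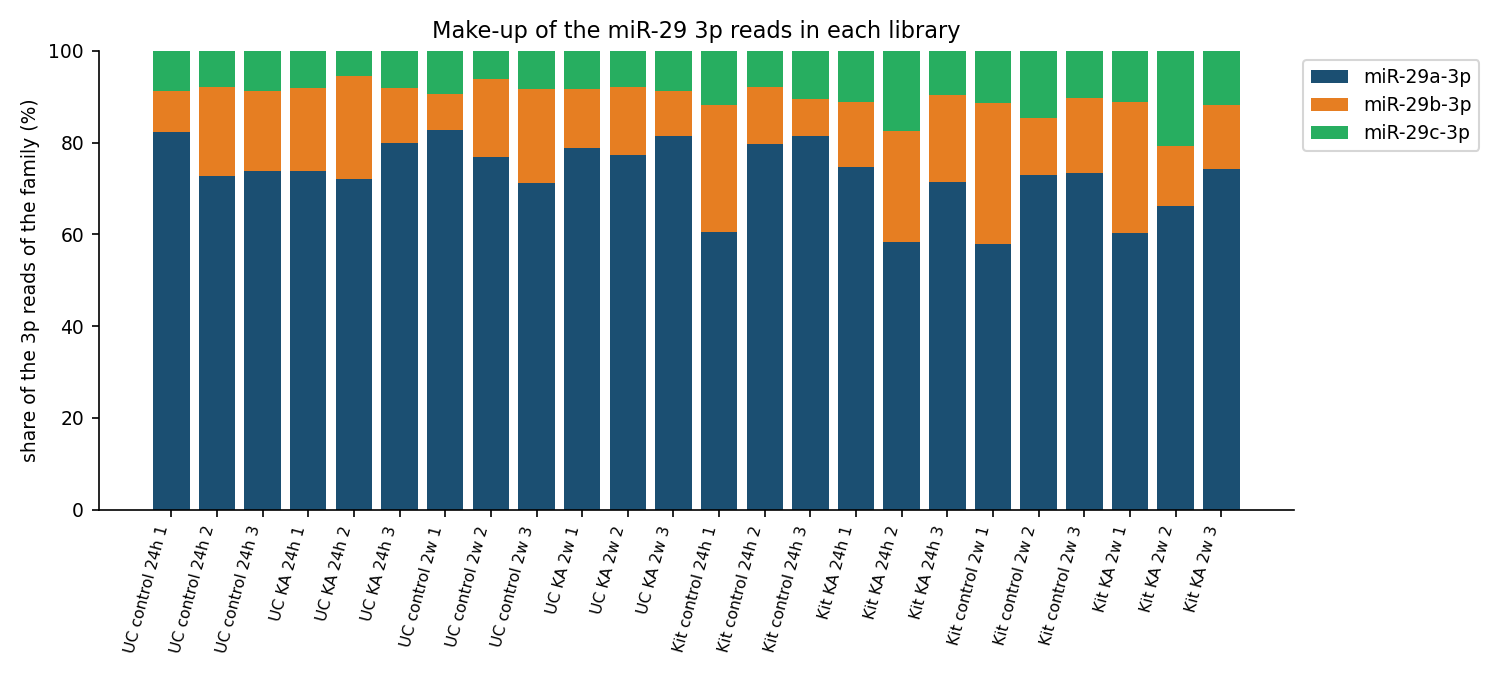
Stacked bars of the share (%, y axis) of miR-29a-3p, miR-29b-3p and miR-29c-3p among the 3p reads of the family in each of the 24 libraries (x axis). miR-29a-3p is the largest part in all 24, from 58.0% in the kit control 2-week library numbered 1 to 82.7% in the UC control 2-week library numbered 1. Most reads named miR-29b-3p hold no base that separates it from miR-29c-3p.

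The SD of each share was larger among kit libraries than among UC libraries. In 4 of the 12 kit libraries, the controls numbered 1 at 24 h and 2 weeks and the KA libraries numbered 2 at 24 h and 1 at 2 weeks, miR-29b-3p made up between 24.1 and 30.7% of the 3p reads, against 7.94 to 18.9% in the other kit libraries. The KA 2-week library numbered 2, the deepest of all with 676726 counts, had the highest share of miR-29c-3p, 20.8%. UC libraries ranged from 8.00 to 22.4% for miR-29b-3p and from 5.61 to 9.33% for miR-29c-3p.

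The ratio of 3p to 5p reads compares both arms of one hairpin within a library. For miR-29a the log2 ratio (0.5 reads added to each arm) was 6.28 ± 1.20 in UC EEFs and 7.41 ± 0.83 in kit EEFs (SD, n = 12 each), higher in kit EEFs by 1.13 (p = 0.00614, adjusted 0.0138, two-sided exact permutation test). Group means (n = 3 each) were 5.59 (UC) and 7.36 (kit) in controls and 5.16 and 6.99 with KA at 24 h. At 2 weeks they were 6.66 and 7.59 in controls and 7.72 and 7.71 with KA, so the last pair was nearly equal. UC libraries held between 0 and 6 miR-29a-5p reads. The UC KA 2-week library numbered 3 held 0, so its ratio of 9.08 was set by the added 0.5 and by depth. Taken as a share of both arms with nothing added, a measure chosen after seeing the data, miR-29a-3p made up 98.7% ± 1.04 in UC EEFs and 99.4% ± 0.35 in kit EEFs, which also passed (p = 0.00766, adjusted 0.0203, same exact test). For miR-29c the UC libraries held between 12 and 30 3p reads, and 6 of 12 held no 5p read, so that the log2 ratio there was set by the added 0.5 and by depth and is not compared. As a share, miR-29c-3p made up 96.8% ± 3.81 and 98.4% ± 1.25 of both arms, and the difference did not pass (p = 0.193, adjusted 0.217, same exact test). Summed over libraries, the 5p strand made up 1.20% of the miR-29a reads in UC EEFs (exact 95% interval 0.790 to 1.74%) and 0.524% in kit EEFs (0.409 to 0.660%), and 2.94% (1.19 to 5.97%) and 1.20% (0.835 to 1.68%) of the miR-29c reads. The 3p strand was the major one in both hairpins and with both methods. These intervals cover counting error only and not the spread between libraries. They did not overlap between the methods for miR-29a and overlapped for miR-29c.

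The second question was whether KA altered the family. No member passed the adjusted threshold in KA against control in either method at either time, none had an unadjusted p under 0.05, and DESeq2 also called none. Among all miRNAs tested, the adjusted threshold was passed by 0.476% in UC EEFs at 24 h (2 of 420), 0.952% in UC EEFs at 2 weeks (4 of 420) and 0% in kit EEFs at either time (520 tested), and an unadjusted p under 0.05 was reached by 2.86%, 7.86%, 4.62% and 2.69%.

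For miR-29a-3p in UC EEFs at 24 h, the controls had 1461, 1288 and 917 CPM and the KA libraries 1729, 1196 and 1449 CPM. At 2 weeks the controls had 1494, 1197 and 1791 CPM and the KA libraries 1693, 1497 and 1603 CPM. The groups overlapped at both times. The log2 differences, KA minus control, were 0.19 (interval -0.39 to 0.76) and 0.21 (-0.36 to 0.78), so that a rise by more than 0.78 on the log2 scale is outside both intervals. In kit EEFs they were -0.00 (-0.62 to 0.61) at 24 h and 0.23 (-0.39 to 0.84) at 2 weeks, again with overlapping groups.

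miR-29c-3p showed its largest KA differences in kit EEFs. At 24 h the controls had 476, 394 and 591 CPM and the KA libraries 589.8, 929.6 and 406 CPM, a log2 difference of 0.52 (interval -0.31 to 1.36, adjusted p = 0.882, edgeR). At 2 weeks the controls had 549, 524 and 616 CPM and the KA libraries 486, 1433 and 632 CPM, a log2 difference of 0.66 (-0.17 to 1.49, adjusted p = 0.998, edgeR). In both cases the KA library numbered 2 stood above all others. The remaining KA libraries lay within the range of the controls at 24 h, and 1 just below and 1 just above it at 2 weeks. Without that library the difference was 0.09 at 24 h and -0.02 at 2 weeks. In UC EEFs, miR-29c-3p differed by -0.00 (-0.88 to 0.87) at 24 h and by 0.24 (-0.60 to 1.08) at 2 weeks.

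For miR-29b-3p the log2 difference was 0.40 (interval -0.40 to 1.20) in UC EEFs and 0.48 (-0.38 to 1.33) in kit EEFs at 24 h, and -0.16 (-0.95 to 0.63) and 0.00 (-0.84 to 0.85) at 2 weeks. In kit EEFs at 24 h the controls had 1120, 619.8 and 443.8 CPM and the KA libraries 755, 1279 and 790.1 CPM, which overlap. When reads with a long 3′ tail, described below, were left out, this difference turned from 0.48 to -0.46 (adjusted p = 0.909, edgeR).

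The 5p members were too sparse for a firm statement. miR-29c-5p in UC EEFs at 2 weeks was the only member whose KA and control libraries did not overlap, with 8.03, 11.8 and 11.7 CPM in controls and 5.94, 0 and 0 CPM in KA libraries, which are at most 2 reads each. Of the 420 miRNAs in that comparison, 10.2% had groups without overlap, as had 9.76% (UC at 24 h), 9.04% (kit at 24 h) and 4.81% (kit at 2 weeks) in the others, where every member overlapped. For miR-29a-5p the intervals reached from -2.83 to 2.21 over the 4 comparisons.

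No member passed the adjusted threshold between 2 weeks and 24 h in any of the 4 combinations of method and treatment, in which the background was 0% (UC control), 0.952% (UC KA), 0% (kit control) and 0.192% (kit KA), and 4.05%, 10.5%, 3.65% and 3.08% at an unadjusted p under 0.05. The lowest unadjusted p belonged to miR-29a-5p in the UC KA groups, with 28.2, 46.6 and 33.97 CPM at 24 h (3, 6 and 3 reads) and 11.9, 6.66 and 0 CPM at 2 weeks (2, 1 and 0 reads). All 3 libraries at 24 h lay above those at 2 weeks, and 10.5% of the 420 miRNAs tested had groups without overlap in that comparison (8.33% in UC controls, 8.65% in kit controls and 6.35% in kit KA groups). The other member without overlap between times was miR-29c-5p in kit controls, with at most 6 reads per library. For miR-29a-5p in the UC KA groups the log2 difference was -2.32 (interval -4.11 to -0.52). Its adjusted p was 0.278 in edgeR's quasi-likelihood test (unadjusted 0.0126). Its partner strand miR-29a-3p differed by 0.26 (-0.31 to 0.83) in the same libraries.

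A change in the KA effect from 24 h to 2 weeks was called for no member, against a background of 0.476% in UC EEFs and 0% in kit EEFs (6.9% and 3.27% at an unadjusted p under 0.05). The KA effects of the methods also did not differ for any member at the adjusted threshold (background 0% at 24 h and at 2 weeks, 2.27% and 3.53% unadjusted), and no member had an unadjusted p under 0.05 in these tests. Within-family shares, arm ratios and altered 3′ ends did not pass a two-sided exact permutation test between KA and control with either method, the smallest unadjusted p being 0.11 (miR-29c-3p altered 3′ ends in UC EEFs, adjusted 0.855), where 0.005 is the smallest p that 400 permutations can give. Shares also did not pass between times (smallest unadjusted p 0.31 in UC EEFs and 0.355 in kit EEFs, same exact test).

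The third set of measurements concerned read ends. The deposited modification table lists, for each read, whether its ends match the mature miRNA, and at which base a deviating 3′ end begins. The reads listed under the 3 members differed in this respect, though most reads listed under miR-29b-3p hold no base that separates it from miR-29c-3p. Of the miR-29a-3p reads 81.4% ± 5.17 had unaltered ends in UC EEFs and 78.6% ± 5.54 in kit EEFs, of the miR-29c-3p reads 64.0% ± 6.61 and 52.4% ± 11.9, and of the miR-29b-3p reads 31.8% ± 13.2 and 20.1% ± 11.5 (SD, n = 12 each).

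Altered 3′ ends were found in 68.1% ± 13.3 of the miR-29b-3p reads in UC EEFs and 79.6% ± 11.8 in kit EEFs. The difference of 11.6 points passed the test only narrowly (p = 0.0319, adjusted 0.041, two-sided exact permutation test). It no longer passed with the replicate number as a block (adjusted p = 0.0534, same exact test), nor when any 1 of 13 of the 24 libraries was left out (adjusted p from 0.0516 to 0.0816). These were, in UC EEFs, the controls numbered 3 at 24 h and 1 at 2 weeks, the KA library numbered 3 at 24 h and all 3 KA libraries at 2 weeks, and in kit EEFs, the controls numbered 1 at 24 h and 1 and 3 at 2 weeks and the KA libraries numbered 2 and 3 at 24 h and 1 and 2 at 2 weeks.

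For miR-29c-3p the shares were 35.6% ± 6.49 and 46.9% ± 12.1, higher in kit EEFs (p = 0.00903, adjusted 0.0162, same exact test). Only the long tails described below were more frequent in kit EEFs. Ends of miR-29c-3p altered by up to 3 letters went the other way, from 33.1% ± 7.02 in UC EEFs to 23.2% ± 4.77 in kit EEFs, described without a test. For miR-29a-3p the shares with altered 3′ ends were 18.0% ± 5.24 and 21.0% ± 5.58 and did not pass (p = 0.166, adjusted 0.186, same exact test). In all other miRNAs together, altered 3′ ends made up 11.3% ± 1.34 of reads in UC EEFs and 10.3% ± 0.93 in kit EEFs.

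Most altered miR-29b-3p ends were of a single kind. A 3′ pattern of at least 4 letters, called a long 3′ tail here, a limit chosen after the values had been seen and therefore described without a test, was found in 67.2% ± 14.7 of its reads in UC EEFs (33.3 to 85.4%) and in 78.8% ± 11.4 in kit EEFs (53.9 to 91.4%). Among 200 miRNAs with at least 100 reads per method, miR-29b-3p held rank 3 in long tails with both methods, where the median miRNA had 0.634% in UC EEFs and 0.916% in kit EEFs. Tails of 1 to 3 letters made up only 3 of 434 and 37 of 3433 of its reads.

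Most long tails of miR-29b-3p began at base 17. Of its 3867 reads, 2903 (75.1%) matched the hairpin over 16 bases only and then carried other letters. The 16 bases lie within the 17 that miR-29b-3p and miR-29c-3p share, so these reads hold no base that separates the names. All of them were listed under miR-29b-3p, and miR-29c-3p had 0 long tails at base 17 among 3020 reads. This 0 depends on how reads without a separating base were named, which is not given. It cannot be read as a property of miR-29c-3p. Nearly all long tails listed under miR-29c-3p began at base 19 or 20. miR-29a-3p, which base 10 separates from both relatives, had 899 long tails at base 17 among 15715 reads (5.72%), and for miR-29b-3p and miR-29c-3p summed the share at this base was 42.2% of 6887 reads.

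**Figure D4:**
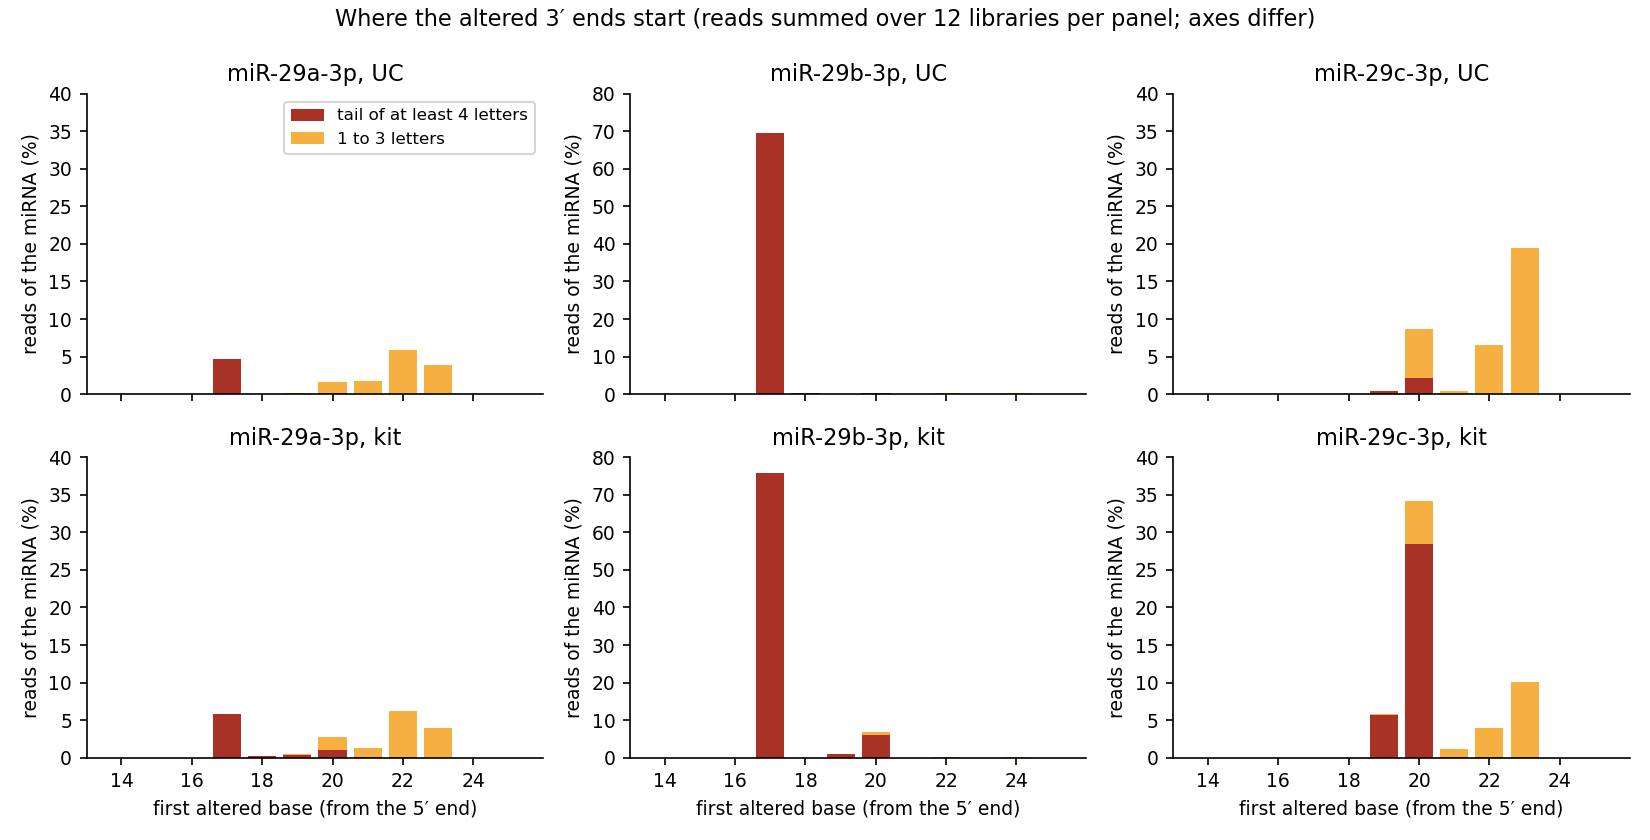
Share of the reads of each 3p member (%, y axis; 80% at most for miR-29b-3p and 40% for the others) by the first altered base at the 3′ end (x axis), UC above and kit below, split into tails of at least 4 letters and of 1 to 3 letters. The highest bar of miR-29b-3p is at base 17 with both methods (69.6 and 75.8%), and the long tails of miR-29c-3p in kit EEFs begin at bases 19 and 20 (5.70 and 28.5%).

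The most frequent tails are shown since the counts of 2 members depend on them. Capitals mark the whole tail from its first altered base, so single capital letters may equal the hairpin.
miR-29b-3p: uagcaccauuugaaauAGGAGGGC
miR-29b-3p: uagcaccauuugaaauAGAGGGAC
miR-29b-3p: uagcaccauuugaaauAGGGAGGAC
miR-29a-3p: uagcaccaucugaaauGGAAGGGC
miR-29c-3p: uagcaccauuugaaaucggAAGGAU

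The first miR-29b-3p tail had 362 reads in 23 libraries, the second 348 in 15 and the third 296 in 19, and the same tails occurred on 46, 156 and 83 different miRNAs. The miR-29c-3p tail had 446 reads in 14 libraries, of which 224 came from the kit KA 2-week library numbered 2. Tails were rich in purines. A and G made up 87.7% of the tail letters of miR-29b-3p (182 patterns, 4 to 14 letters, median 8), 86.7% for miR-29a-3p, 84.1% for miR-29c-3p and 69.0% for all other miRNAs. Of the tailed reads, 91.5% of miR-29b-3p ended in C, against 71.3% of miR-29a-3p, 34.3% of miR-29c-3p and 73.1% of all other miRNAs.

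Long tails on miR-29c-3p were largely seen in kit EEFs. Their share was between 0 and 10.5% in UC libraries (median 0%) and between 3.28 and 51.4% in kit libraries (median 18.5%), with means of 2.43% ± 3.46 and 23.7% ± 14.9 (SD, n = 12 each). The 2 highest values, 50.6 and 51.4%, belonged to the kit KA libraries numbered 2 at 24 h (183 of 362 reads) and 2 weeks (499 of 970 reads), the same libraries that stood above the others in miR-29c-3p level. Without both, the difference between methods fell from 21.2 to 15.8 points, and that between KA and control in kit EEFs from 10.6 to -0.40 points. miR-29a-3p had long tails in 5.29% ± 3.29 of its reads in UC EEFs and 8.01% ± 4.56 in kit EEFs. All other miRNAs together moved the other way, from 2.94% ± 1.08 to 1.96% ± 0.50.

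**Figure D5:**
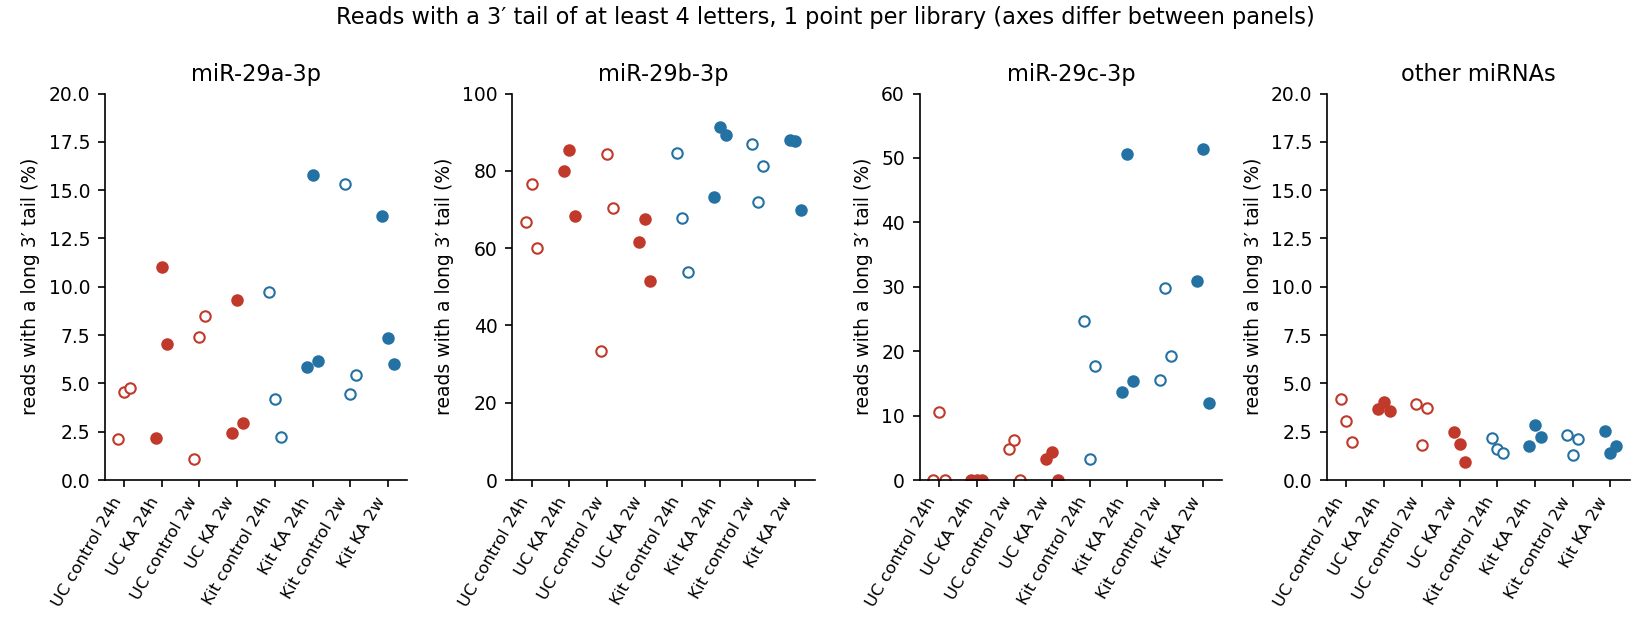
Share of reads with a 3′ tail of at least 4 letters (%, y axis, with its own range in each panel) in each library by group (x axis), for the 3 members of the 3′ arm and for all other miRNAs together, UC in red and kit in blue, controls open and KA filled. miR-29c-3p reaches 51.4% in 1 kit KA library against at most 10.5% in any UC library, and all other miRNAs reach at most 4.17%.

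The tails touched the levels as well. Counting only reads without a long tail, miR-29b-3p had 86.9 CPM ± 30.4 in UC EEFs and 167 CPM ± 47.2 in kit EEFs, below miR-29c-3p with 152 ± 39.1 and 464 ± 107 CPM (SD, n = 12 each), so the order of these members by level was the reverse of that over all reads. The 3 members of the 3′ arm were still higher in kit EEFs, with log2 differences of 1.22 (miR-29a-3p), 0.94 (miR-29b-3p, adjusted p = 8.62e-05, edgeR) and 1.63 (miR-29c-3p). With miR-29b-3p and miR-29c-3p summed into 1 row, the log2 difference of the sum was 1.85 (interval 1.49 to 2.20, edgeR). In the same 4 kit libraries in which miR-29b-3p took 24.1% or more of the 3p reads, the long-tail share of miR-29a-3p was between 9.70 and 15.8%, against 2.20 to 7.37% in the other kit libraries.

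Changes of single bases were less frequent. At the last base of miR-29a-3p, A22G was found in 4.17% of UC reads (93) and 3.83% of kit reads (516), and A22U in 1.35% and 1.88%. miR-29c-3p, with the same last bases, showed A22G in 4.33% (10 reads) and 2.47% (69 reads). Changes inside the miRNA were rare, with 10 of 15715 reads of miR-29a-3p, 3 of 3867 of miR-29b-3p and 3 of 3020 of miR-29c-3p.

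Finally, the miRNAs whose level over the 24 libraries (log2 CPM, mean of each method subtracted) followed the summed 3p members most closely were miR-381-3p (Pearson r = 0.62, Spearman rho = 0.52), miR-186-5p (0.59 and 0.44) and miR-340-5p (0.59 and 0.56), out of 161 candidates with a mean of at least 100 CPM with each method. Without the 2 libraries farthest from the median, r was 0.33, 0.30 and 0.67 in that order. Within each method r was 0.69 (UC) and 0.56 (kit) for miR-381-3p, 0.41 and 0.74 for miR-186-5p, and 0.85 and 0.23 for miR-340-5p. The members themselves had r of 0.87 (miR-29a-3p), 0.79 (miR-29c-3p) and 0.21 (miR-29b-3p) with the sum that contains them. The sum thus followed miR-29b-3p least. All points share their libraries, depth and scaling factors, and the values are descriptions without a test.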

How the data were processed

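The authors trimmed adapters and mapped MiSeq reads to miRBase hairpins with the Chimira server, and deposited raw counts per mature miRNA and per modification pattern in each library. How reads matching several hairpins were assigned is not given in the sources used here. Both tables had equal totals in 11992 of 11992 pairs of miRNA and library after entries marked as doubled were dropped. Position 0 of a 3′ pattern was taken as the last base of the mature miRNA, since the first letter equalled the reference there in 0.372% of reads, against 23.8 and 22.6% at the neighbouring bases.

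The members and lists were chosen with earlier results of these data known. Named were the 5 members, the other miR-29 rows and the 3 miRNAs most like the summed 3p members. Differences in counts were fitted by edgeR 4.0.16 under R 4.3.3 (quasi-likelihood with TMM factors, CPM over 1 in at least 6 libraries of a method) on all miRNAs with Benjamini-Hochberg adjustment. Each group had 1 coefficient, except for kit against UC. That comparison had 1 coefficient per combination of treatment and time and 1 for the method, taken as equal in all combinations. The fits held the 12 libraries of a method, or all 24 for comparisons between methods. Standard errors come from the log2 difference and the F statistic. DESeq2 1.42.0, RLE factors, library size, other filters, the replicate block and each library left out were alternatives, and the settings concerning long tails, the sum of 2 members and the 3p share of both arms were chosen after seeing the data. Shares and ratios were compared by exact permutation tests over libraries (Python 3.11.15, scipy 1.17.1). The study gives its replicates as biological, each a pool of hippocampi. Deviations of same-numbered control and KA libraries correlated at 0.111 to 0.214 (UC) and 0.192 to 0.310 (kit) at 2 weeks. At 24 h the values were -0.080 to 0.056 and -0.246 to 0.112, so the times overlapped slightly. Same-numbered UC and kit libraries gave -0.101 to 0.211. Any such pairing comes from the data and the shared numbers only. The tests were checked on simulated data. qPCR, protein and microscopy data were not analysed here.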

Additional observations from a re-analysis of the deposited data

How the results depend on the processing

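The 3 members of the 3′ arm were called between kit and UC EEFs under every alternative that tested them (2 of 4 when miR-29b-3p and miR-29c-3p were summed), and no member was called for KA or time under any. Each library left out in turn is given as a range below, and where a direction turned the cause was not tested. With reads carrying long tails left out, the log2 difference between kit and UC turned to -0.43 for miR-29a-5p. The KA differences turned to -0.20 (miR-29b-3p) and 0.0680 (miR-29c-3p) in UC at 24 h, 0.21 (miR-29b-3p) in UC at 2 weeks, -0.46 (miR-29b-3p) and -0.0098 (miR-29a-5p) in kit at 24 h and -0.0196 (miR-29b-3p) in kit at 2 weeks. The within-family share between kit and UC was then -1.98 points for miR-29a-3p, no longer called, and -0.889 for miR-29b-3p, that of KA in kit EEFs -0.985 for miR-29b-3p, the KA arm log2 ratio of miR-29a in kit EEFs 0.11, and the shares at 2 weeks against 24 h in UC EEFs -0.375 (miR-29a-3p), 0.491 (miR-29b-3p) and -0.116 points (miR-29c-3p). By library size only, miR-29c-3p differed by 0.0755 (KA, UC at 24 h) and miR-29b-3p by -0.0142 (KA, kit at 2 weeks). That miR-29b-3p value was -0.0040 with RLE factors, -0.0044 with DESeq2 and -0.0163 with at least 10 counts in 6 libraries, and the sum of miR-29b-3p and miR-29c-3p differed by 0.0304 (KA, UC at 2 weeks). Taking the 3p share of both arms in place of the log2 ratio, the difference between kit and UC was 1.58 points for miR-29c, no longer called (the log2 ratio had been limited by libraries without 5p reads), and the KA difference in UC EEFs turned to -0.229 points for miR-29a.

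When libraries of a number formed a replicate block, the miR-29a-3p within-family share (-7.64 points, adjusted p = 0.0513, exact permutation test) and the miR-29b-3p altered 3′ ends (11.6 points, adjusted p = 0.0534, same exact test) between kit and UC were no longer called, and KA differences were -0.0031 for miR-29c-5p (UC at 24 h) and 0.0453 for miR-29a-3p (kit at 24 h). The block changed no other call of a member. With the block, calls over all miRNAs moved from 2 to 4 (KA, UC at 24 h), from 4 to 6 (KA, UC at 2 weeks) and from 4 to 9 (time, UC KA). They also moved from 0 to 2 (KA, kit at 2 weeks), from 2 to 3 (change of the KA effect with time, UC) and from 263 to 266 (kit against UC). KA calls in UC at 2 weeks went from 4 to 0 by library size only, 1 without a filter and 2 with at least 10 counts.

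Without 1 library each, log2 differences ranged from -0.0585 to 0.23 (miR-29a-5p, kit and UC). For KA in UC at 24 h they ranged from -0.23 to 0.16 (miR-29c-3p) and -0.55 to 0.53 (miR-29c-5p), and at 2 weeks from -0.45 to 0.31 (miR-29b-3p). For KA in kit at 24 h the range was -0.23 to 0.11 (miR-29a-3p), and at 2 weeks -0.31 to 0.55 (miR-29b-3p), -0.0188 to 0.95 (miR-29c-3p) and -0.45 to 0.54 (miR-29a-5p). The miR-29b-3p altered ends between kit and UC ranged from 8.90 to 13.9 points. KA differences in UC EEFs ranged from -0.437 to 1.86 (miR-29a-3p), -1.70 to 0.830 (miR-29b-3p) and -0.855 to 0.00908 points (miR-29c-3p) in within-family share, from -0.21 to 0.69 in the miR-29a arm ratio, and from -1.71 to 1.40 (miR-29a-3p) and -2.50 to 6.61 points (miR-29b-3p) in altered ends. In kit EEFs they ranged from -1.12 to 3.44 points (miR-29b-3p share) and -0.43 to 0.0615 (miR-29a arm ratio). Between times the ranges were -0.212 to 0.652 points (miR-29c-3p share, UC), -0.671 to 3.67 (miR-29b-3p share, kit) and -0.00879 to 0.0577 (family share, kit). Depth limits the 5p strands most, with at most 6 reads per UC library and 10 per kit library.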
